A study of Homo sapiens with 6 samples.

Results

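The last part of cholesterol synthesis, from squalene to cholesterol, was described over 9 enzymes, *SQLE*, *LSS*, *CYP51A1*, *TM7SF2*, *MSMO1*, *NSDHL*, *HSD17B7*, *EBP* and *DHCR7*, in HCCLM3, a human hepatocellular carcinoma (HCC) cell line. The genes were taken by their symbols from a table of 20381 genes, and each of the 9 had 1 row. They were put together with earlier results of the same libraries known, among them the difference between the groups, so that this difference is given as a description and not as a test. RNA-seq of poly(A) RNA was carried out on 3 libraries labelled as stable *PON1* overexpression (PON1-OE) and 3 labelled as negative control (NC). *PON1* encodes paraoxonase 1, a liver enzyme secreted into the blood on lipoproteins. PON1-OE cells carried the coding sequence of *PON1* from a lentivirus, and NC cells are described in the series' design text as carrying the empty lentivirus. Both lines were selected with puromycin, and the sources do not state whether the 3 libraries of a group came from separate infections or cultures, so that n counts libraries and any p measures only the spread between them. The sources also differ in the serum content of the medium, and the design text gives a lysis time after transfection where the labels describe stable lines.

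As background, squalene is the linear precursor of all sterols. SQLE adds an oxygen to it, LSS folds the product into lanosterol, and the enzymes that follow strip methyl groups from lanosterol and move or remove its double bonds until cholesterol is left. Much of this work takes place in the membrane of the endoplasmic reticulum, where SREBP-2, a transcription factor released when sterols are scarce, is known to drive the genes of the whole pathway together. The liver is a main site of this synthesis.

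The 9 enzymes showed a higher fitted level in PON1-OE than in NC in every case, with a log2 fold change (log2FC) of 0.08 to 0.41. The difference was largest for *MSMO1* (1.33-fold), *HSD17B7* (1.3-fold) and *DHCR7* (1.24-fold), and smallest for *TM7SF2* (1.06-fold) and *LSS* (1.05-fold). Their median log2FC was 0.26, against −0.0025 over the 11958 genes tested, and it ranged from 0.19 (without NC replicate 3) to 0.31 (without NC replicate 1) when single libraries were left out. In the quasi-likelihood test of edgeR, adjusted by Benjamini-Hochberg over all genes tested, 5 of the 9 (*SQLE*, *CYP51A1*, *MSMO1*, *NSDHL* and *DHCR7*) had an adjusted p under 0.05 and were higher, and 0 were lower (also 0 at an unadjusted p under 0.05, in DESeq2 and in limma-voom). Of all genes tested, 0.502% (60 genes) were called higher and 0.176% (21 genes) lower in the same fit. Nothing is read from this count, since the enzymes were chosen on this contrast. It was 2 without NC replicate 2, 1 without NC replicate 3, 1 without PON1-OE replicate 1, 2 without PON1-OE replicate 2, 2 without PON1-OE replicate 3 and 4 without NC replicate 1. *MSMO1* was called under each of the 12 alternative fits at that threshold, with an adjusted p of 5.29e-10 to 0.00505.

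**Figure D1:**
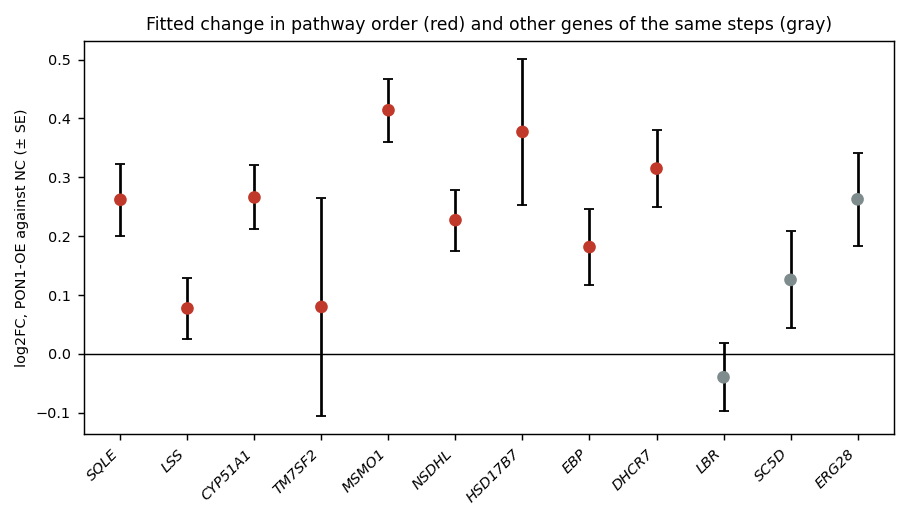
Fitted log2FC of PON1-OE against NC (vertical axis, bars are standard errors from edgeR) for the 9 enzymes in pathway order in red and for *LBR*, *SC5D* and *ERG28*, genes of the same steps, in gray. *MSMO1* is highest at 0.41, *LSS* and *TM7SF2* lie near 0.08, and *LBR* is the only gene below 0.

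The promoter sequences of *MSMO1*, *HSD17B7* and *DHCR7*, which had the largest differences, and of *LSS*, which had the smallest, are shown to let the letters upstream of these genes be compared. They are from RefSeq on GRCh38.p14, 5′ to 3′ in the direction of the gene, and lie within the 250 bases before an annotated start. Each run ends before the first base that GENCODE v29 counts as an exon. Capitals mark CCAAT on either strand, the letters that the factor NF-Y is known to bind.
MSMO1, chr4:165327419-165327622, plus strand: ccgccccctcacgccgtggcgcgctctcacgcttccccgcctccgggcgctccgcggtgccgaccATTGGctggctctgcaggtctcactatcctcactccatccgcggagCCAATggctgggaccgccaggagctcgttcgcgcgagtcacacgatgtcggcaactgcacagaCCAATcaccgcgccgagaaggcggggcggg
HSD17B7, chr1:162790452-162790701, plus strand: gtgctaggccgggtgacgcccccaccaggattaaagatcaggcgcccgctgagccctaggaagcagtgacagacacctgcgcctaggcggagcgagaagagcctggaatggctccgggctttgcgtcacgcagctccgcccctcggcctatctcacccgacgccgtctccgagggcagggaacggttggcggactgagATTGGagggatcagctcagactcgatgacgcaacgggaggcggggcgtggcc
DHCR7, chr11:71448436-71448643, minus strand: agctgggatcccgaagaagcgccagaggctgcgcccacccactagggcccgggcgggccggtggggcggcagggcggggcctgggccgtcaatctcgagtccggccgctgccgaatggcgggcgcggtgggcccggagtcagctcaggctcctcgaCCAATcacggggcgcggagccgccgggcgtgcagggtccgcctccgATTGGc
LSS, chr21:46228825-46229024, minus strand: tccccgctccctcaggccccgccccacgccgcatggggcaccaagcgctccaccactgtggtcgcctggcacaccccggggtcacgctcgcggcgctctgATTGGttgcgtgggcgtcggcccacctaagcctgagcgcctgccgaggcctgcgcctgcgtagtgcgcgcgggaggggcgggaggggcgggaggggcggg
A promoter window was read for 8 of the 9 enzymes, and *SQLE* is not shown. *DHCR7* has 2 annotated starts, of which that nearer to its coding part is printed. CCAAT was found on either strand in 7 of the 9 windows (none in *CYP51A1* or at the other start of *DHCR7*), with 4 matches within the 250 bases of *MSMO1*, 3 of them in the printed run, 2 in *DHCR7* and 1 in *HSD17B7* and in *LSS*. Over 35116 human promoter windows of the same length 32.0% held it. Across the enzymes the number of these matches did not follow the log2FC. *NSDHL* (log2FC 0.23) held more of them than *MSMO1* (0.41), with overlapping matches each counted. *EBP* (0.18) held more than *DHCR7* (0.31), and *CYP51A1* (0.27) held none. GGGCGG, a letter pattern of Sp1 sites, was found on either strand in 7 of the 9 windows (none in *NSDHL* or at the other start of *DHCR7*), against 42.6% of all windows. TCACNCCAC, a consensus of the sterol regulatory element, was searched on both strands and found in 0 of the 9 windows of these enzymes, against 0.883% of all windows. With so rare a pattern, searched by exact letters, 0 of 9 does not tell these windows from others. None of the 3 patterns contains another. These are matches of letters in a short window, and no binding was measured here.

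*PON1* was read to check the labels. NC replicates 1 to 3 held 0, 2 and 3 rounded counts of it, and PON1-OE replicates 1 to 3 held 155, 181 and 167. With no NC library above 3 counts, taken as the floor, the PON1-OE mean was at least 60.0-fold higher. The libraries held 15706672 to 17948383 estimated counts each. Levels are in CPM, counts scaled to the size of a library, where 3 counts, taken as the floor of detection, equal 0.166 to 0.192 CPM (counting error only). The label calls the cells hepatocytes, and of 8 hepatocyte markers 5 were above the floor in every library. *HNF4A*, a liver transcription factor, averaged 78.6 ± 5.36 CPM over the NC and 80.2 ± 1.89 CPM over the PON1-OE libraries (SD, n = 3 each). *ALB*, the gene of albumin, had only 0.578 ± 0.201 and 0.456 ± 0.210 CPM. *TTR* (0 to 2 counts) and *SERPINA1* (0 or 1 count) were under the floor in every library, and *APOA1* had 0 to 5 counts. Of 5 leukocyte markers 3, among them *PTPRC* and *CD3E*, had a count of 0 in every library and *CD14* had 0 to 5 counts, but *CD68*, a lysosomal protein of macrophages, had 3514 to 4097 counts. The summed level of that list was 206 to 227 CPM in NC and 224 to 248 CPM in PON1-OE. Of the 4 endothelial markers 3 were above the floor in every library, with sums of 21.9 to 24.6 CPM in NC and 25.1 to 27.8 CPM in PON1-OE, and of the 4 fibroblast markers 1 was, with 3.64 to 4.92 and 4.47 to 7.07 CPM. The 3 liver tumor markers summed to 0.221 to 0.908 CPM in NC and 0.702 to 1.10 CPM in PON1-OE, and 2 of them were at 0 in every library. The endothelial sums did not overlap between the groups and the others did. Most of the endothelial sum came from *PECAM1* and *KDR*. *PECAM1* had its groups apart with PON1-OE above, as had 8.32% of all genes tested, and *KDR* overlapped. *VWF* averaged 0.48 CPM in both groups, and *CDH5* had 0 or 1 count per library. The part of these markers in the results was not tested.

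*SQLE* (ENSG00000104549, plus strand of chromosome 8 from 124998497 to 125022283 on GRCh38 in GENCODE v29) encodes squalene epoxidase, a rate-limiting enzyme of the pathway. In CPM normalized by the TMM method, the unit used from here on, it had 221, 186 and 172 in the NC libraries, in the order of their replicate numbers, and 241, 225 and 229 in the PON1-OE libraries. The groups did not overlap, but NC replicate 1 lay just under the lowest PON1-OE library and NC replicate 3 was the lowest of all. The log2FC was 0.26 (standard error 0.061), and it fell to 0.19 without NC replicate 3 and was 0.37 without NC replicate 1. Its adjusted p of 0.04998 in edgeR lay at the threshold, and over the alternatives it ranged from 0.000122 to 0.365.

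*LSS* (ENSG00000160285, minus strand of chromosome 21 from 46188141 to 46228824) encodes lanosterol synthase, which closes the ring system. Its levels were 100, 93.5 and 96.1 CPM in the NC libraries and 108, 102 and 94.9 CPM in the PON1-OE libraries. The groups overlapped, since PON1-OE replicate 3 lay below 2 of the NC libraries. The log2FC was 0.08 (standard error 0.052), and it was 0.03 if PON1-OE replicate 1 was left out, against 0.13 if replicate 3 of that group was. Antisense genes of GENCODE v29 share 448 and 122 exonic bases with it, and were not analysed here, so that reads from the opposite strand cannot be told apart if counting did not use strand.

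*CYP51A1* (ENSG00000001630, minus strand of chromosome 7 from 92112151 to 92134803), the cytochrome P450 that takes the first methyl group off lanosterol, had 95.7, 83.9 and 90.5 CPM in the NC libraries and 115, 103 and 107 CPM in the PON1-OE libraries. The highest NC library lay below the lowest PON1-OE library, with a log2FC of 0.27 (standard error 0.054). In GENCODE v29 it shares 2844 exonic bases with ENSG00000285772 on the same strand. That gene had a count of 0 in all libraries, so that adding both together left the log2FC at 0.27. *CYP51A1* also shares 99 exonic bases with ENSG00000285953 on the same strand and 138 with the antisense gene *CYP51A1-AS1*. Reads of these were not separated here. *TM7SF2* (ENSG00000149809, plus strand of chromosome 11 from 65111845 to 65116384) encodes a reductase of the double bond that this step leaves, a reaction that *LBR* also serves. It had the lowest counts of the 9, with 3.57, 3.54 and 3.58 CPM in the NC libraries and 3.47, 4.25 and 3.58 CPM in the PON1-OE libraries. PON1-OE replicate 2 was above the other libraries, which lay close together. Its log2FC was 0.08 (standard error 0.19) and turned to −0.015 without PON1-OE replicate 2. It had 56 to 68 counts per library, which limits what could be seen at this depth.

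*MSMO1* (ENSG00000052802, plus strand of chromosome 4 from 165327623 to 165343160) encodes the oxidase that attacks the remaining paired methyl groups. It had 127, 117 and 105 CPM in the NC libraries and 159, 153 and 153 CPM in the PON1-OE libraries. In CPM, though not clearly on the log2 scale, the groups stood apart by more than the whole range of either group. The log2FC was 0.41 (standard error 0.054), with 1.61% of all genes tested having a higher one. *NSDHL* (ENSG00000147383, plus strand of chromosome X from 152830967 to 152869729), the dehydrogenase that then splits off the oxidized group, had 105, 104 and 92.4 CPM in the NC libraries and 121, 118 and 114 CPM in the PON1-OE libraries. Its groups did not overlap either, NC replicate 3 was the lowest library, and the log2FC was 0.23 (standard error 0.052).

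*HSD17B7* (ENSG00000132196, plus strand of chromosome 1 from 162790702 to 162812817) encodes the reductase that ends this demethylation cycle. Its levels of 8.78, 7.52 and 7.51 CPM in the NC libraries and 9.74, 11.5 and 9.64 CPM in the PON1-OE libraries did not overlap. The log2FC of 0.38 was close to that of *MSMO1*, but with 128 to 184 counts per library its standard error was 0.12 and its adjusted p 0.222 (edgeR). Its pseudogene copy *HSD17B7P2* was not analysed here, and reads that fit either gene cannot be told apart. *EBP* (ENSG00000147155, plus strand of chromosome X from 48521158 to 48528716), the isomerase that shifts the ring double bond, had 116, 92.3 and 100 CPM in the NC libraries and 120, 120 and 110 CPM in the PON1-OE libraries. NC replicate 1 lay above PON1-OE replicate 3, and the log2FC was 0.18 (standard error 0.064), which was 0.11 without NC replicate 2 and 0.28 without NC replicate 1. Its deposited counts were not whole in most libraries and were rounded.

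*DHCR7* (ENSG00000172893, minus strand of chromosome 11 from 71428193 to 71452868) encodes the reductase that makes cholesterol from its last precursor in a branch of the pathway. It had 78.6, 68.4 and 64.7 CPM in the NC libraries and 89.0, 93.2 and 81.0 CPM in the PON1-OE libraries. The groups did not overlap and the nearest libraries were NC replicate 1 and PON1-OE replicate 3. The log2FC was 0.31 (standard error 0.066). Over the 9 enzymes the groups were apart, with PON1-OE above, in 6, and with PON1-OE below in 0. Over all genes tested these shares were 8.32% and 7.74%, from which nothing is read for genes chosen on this contrast.

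**Figure D2:**
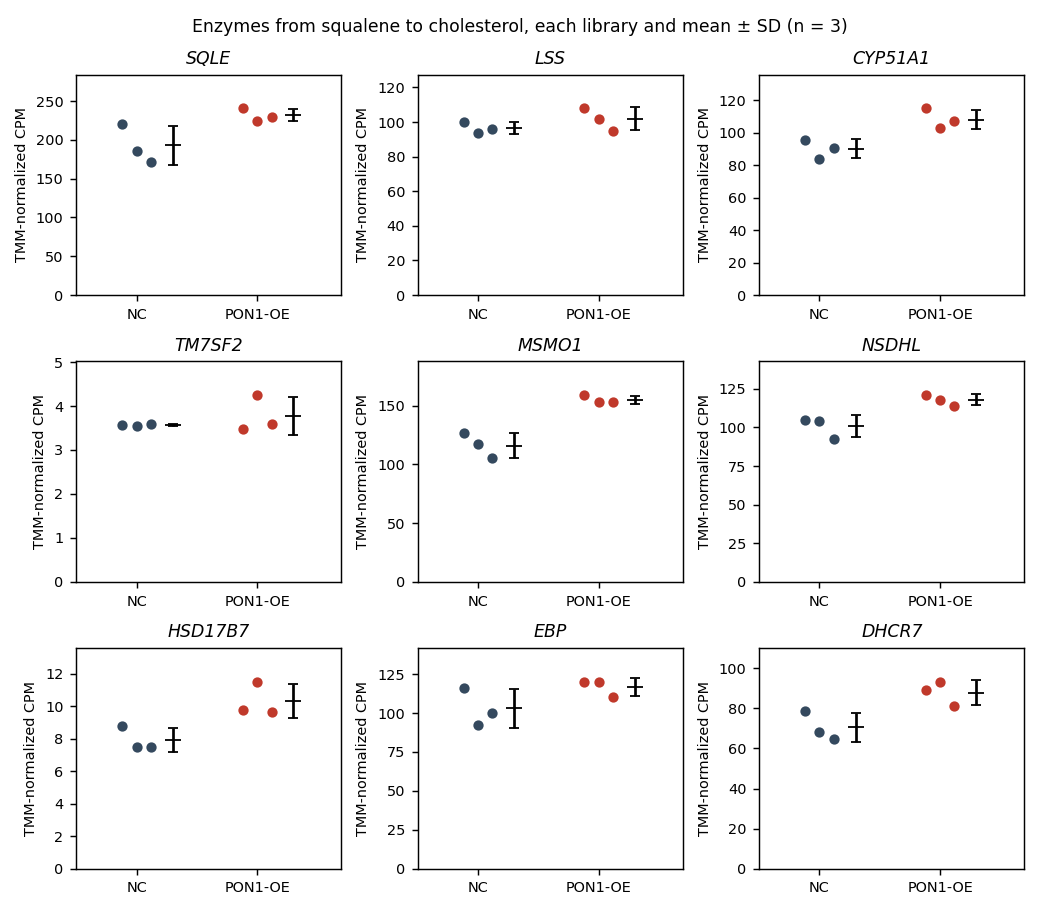
TMM-normalized CPM of the 9 enzymes in each library (points, vertical axes from 0, NC in blue-gray and PON1-OE in red) with the mean and SD of the 3 libraries of a group beside them. The groups are apart for *SQLE*, *CYP51A1*, *MSMO1*, *NSDHL*, *HSD17B7* and *DHCR7*, and overlap for *LSS*, *TM7SF2* and *EBP*.

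Ratios within a library do not depend on how libraries are scaled. The ratio of *MSMO1* to *LSS* in CPM was 1.27, 1.25 and 1.10 in the NC libraries, while it was 1.47, 1.49 and 1.61 in the PON1-OE libraries. For *SQLE* to *LSS* the values of 2.21, 1.99 and 1.79 in the NC libraries and 2.22, 2.2 and 2.42 with PON1-OE touched, with NC replicate 1 above PON1-OE replicate 2. For the first ratio the groups did not overlap. It sets the enzyme with the largest log2FC over that with the smallest, so a separation follows from how the pair was picked. Nothing is read from it.

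To compare the enzymes with each other, their CPM were divided by exonic length in kb (all exons of basic coding transcripts in GENCODE v29). In NC, *SQLE* had the highest level per length (65.1 ± 8.50 CPM per kb, SD, n = 3), followed by *EBP* (58.0 ± 6.92), *NSDHL* (50.4 ± 3.52) and *MSMO1* (45.9 ± 4.30). Among these enzymes the range of each overlapped that of the next, and *MSMO1* stood above the following *CYP51A1* in every NC library. *CYP51A1* (26.9 ± 1.77) and *DHCR7* (26.5 ± 2.70) came next and overlapped each other, and *LSS* (18.0 ± 0.621), *HSD17B7* (5.66 ± 0.522) and *TM7SF2* (2.07 ± 0.0125) each stood below the gene before it. *LBR*, which serves the same reaction as *TM7SF2*, had 19.2 ± 0.594 CPM per kb in NC. In PON1-OE *SQLE* (78.0 ± 2.68 CPM per kb) stood above *EBP* (65.7 ± 3.27) in all libraries, and *MSMO1* (61.2 ± 1.41) was now listed before *NSDHL* (59.0 ± 1.87), though their ranges overlapped.

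**Figure D3:**
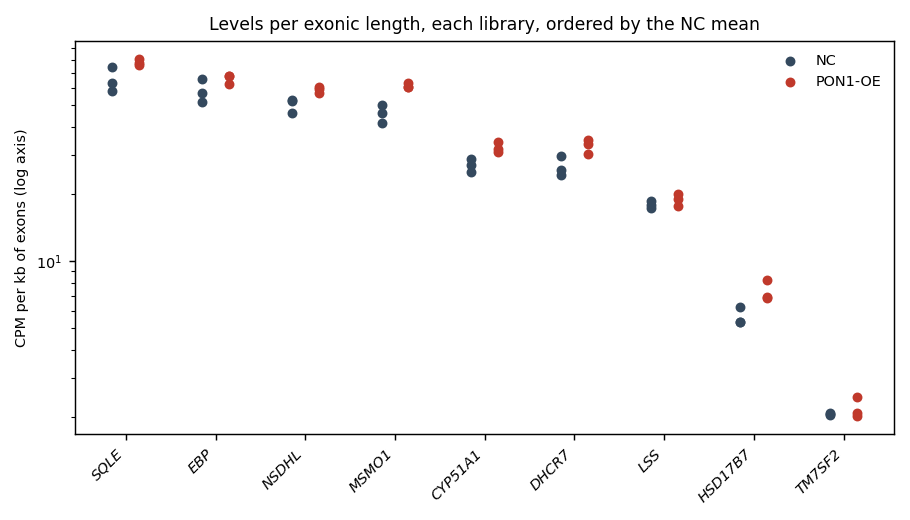
Level of each of the 9 enzymes in CPM per kb of exons (log axis) in each NC (blue-gray) and PON1-OE (red) library, ordered by the NC mean. The levels run from 2.07 CPM per kb for *TM7SF2* to 65.1 for *SQLE* in NC, a wider span than any difference between the groups.

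How the enzymes varied inside a group does not use the difference between the groups. In log2 CPM minus the mean of the own group, all 9 enzymes were above 0 in NC replicate 1, with a mean of 0.115. In NC replicates 2 and 3 the mean was −0.0448 and −0.0703, and 7 of the 9 were below 0 in each. PON1-OE replicate 3 had all 9 below 0 (mean −0.0615), and PON1-OE replicates 1 and 2 had means of 0.0213 and 0.0401. The median deviation over all genes tested lay between −0.000707 and 0.00251. *SQLE* and *HSD17B7* spread most inside their groups (SD 0.135 on the log2 scale), and *LSS* spread least (0.0761). Over the 36 pairs of enzymes the within-group deviations had a median Pearson's r of 0.484 over 6 libraries, and 31 pairs were above 0. The highest was *SQLE* with *MSMO1* (0.961) and the lowest *CYP51A1* with *TM7SF2* (−0.477). All pairs share the same 6 libraries and 4 degrees of freedom, and pairs of other genes were not computed, so these values are a description.

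**Figure D4:**
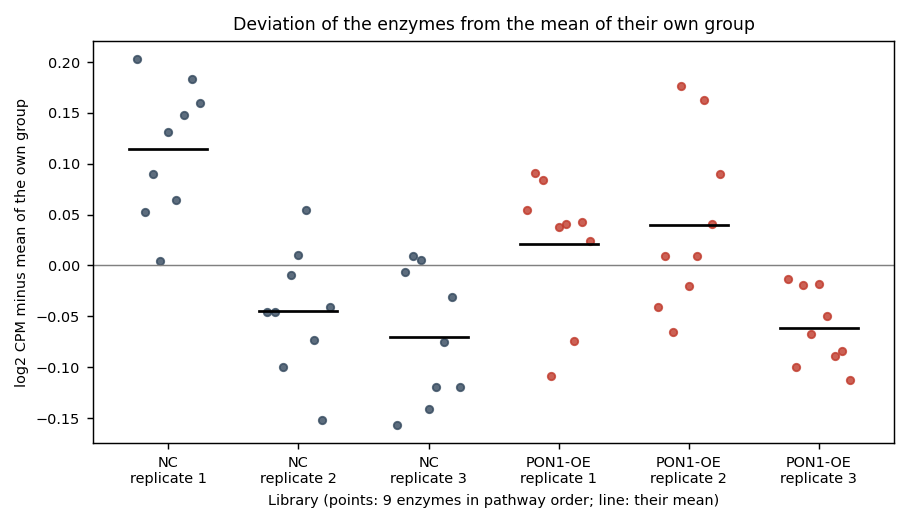
Deviation of each enzyme from the mean of its own group in log2 CPM (vertical axis) by library, with points in pathway order from left to right and a line at their mean. All points of NC replicate 1 lie above 0 and all points of PON1-OE replicate 3 below 0, and the spread of the 9 points inside a library is wider than these shifts.

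For *SQLE*, *EBP* and *LSS* the range inside NC (0.36, 0.335 and 0.0986 in log2 CPM) was wider than the fitted difference between the groups. NC replicate 1 lay nearest to PON1-OE, with a mean over the enzymes of −0.00699 in log2 CPM centred over the 6 libraries, against −0.167 and −0.192 in NC replicates 2 and 3 and 0.0606 to 0.162 in PON1-OE.

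Other genes of the same steps were read from a list written with an account of these data known. *ERG28*, a scaffold of the demethylation complex, had 23.0, 21.1 and 21.5 CPM in the NC libraries and 24.6, 27.3 and 26.9 CPM in the PON1-OE libraries, with a log2FC of 0.26 (standard error 0.079, adjusted p = 0.173 in edgeR). *SC5D*, the desaturase before DHCR7, had a log2FC of 0.13 (standard error 0.082). *LBR* (−0.04, standard error 0.058) had a fitted difference smaller than its standard error. Of the 4 genes of that list that were tested, 0 had an adjusted p under 0.05. The redox partners that feed electrons to the pathway's oxygenases and desaturase, *POR*, *CYB5A*, *CYB5B*, *CYB5R1* and *CYB5R3*, had log2FC values between −0.06 and 0.06, and 0 of these 5 passed. *CYB5B* had the largest of them, −0.06 (standard error 0.046).

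Of 10 enzymes listed from acetyl-CoA to squalene, 9 had a positive log2FC (median 0.23 over the list). The list holds *GGPS1*, an enzyme of a side branch. Of the 10, 3 passed the adjusted threshold, all higher. Among those called were *HMGCS1* (log2FC 0.33) and *FDPS* (0.24). This count was 1 when NC replicate 3 was left out, and also without PON1-OE replicate 1 or replicate 3. In the same fit, 1 of 7 genes of cholesterol uptake and transport passed, with a median log2FC of 0.15 over the list. This count was 0 without NC replicate 3, and 2 genes of the list passed without NC replicate 1 or without NC replicate 2. In DESeq2 3 passed.

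Of the 7 genes of the SREBP machinery 0 passed, also with single libraries left out except NC replicate 1, without which 1 passed. *INSIG1*, a sterol sensor, had the largest log2FC among them (0.29, standard error 0.079, adjusted p = 0.130 in edgeR), with overlapping groups. *SREBF2*, which encodes SREBP-2, had 127, 120 and 124 CPM in the NC libraries and 140, 131 and 130 CPM in the PON1-OE libraries, a log2FC of 0.11 (standard error 0.045, adjusted p = 0.358 in edgeR). *SREBF1*, which encodes SREBP-1, had 72.5, 61.2 and 68.1 CPM in the NC libraries and 60.2, 63.5 and 56.4 CPM in the PON1-OE libraries. Its groups overlapped, and its log2FC was −0.16 (standard error 0.065, adjusted p = 0.345 in edgeR). Of the 4 genes of LXR signaling and sterol export that were tested, 0 passed and all 4 had a negative log2FC (median −0.32). For *NR1H2* it was −0.02 (standard error 0.050), smaller than its standard error. For *MYLIP*, with 16 to 43 counts per library, it was −0.34 (standard error 0.31). *ABCA1*, a cholesterol exporter, had 5.93, 7.19 and 7.62 CPM in the NC libraries and 5.60, 2.81 and 5.75 CPM in the PON1-OE libraries, with a log2FC of −0.55 (standard error 0.20, adjusted p = 0.270 in edgeR). All 8 enzymes of fatty acid synthesis had a positive log2FC of 0.02 to 0.17, and 0 passed, with *FADS2*, a desaturase, at 0.17 (standard error 0.077). The smallest of these, 0.02, was under its standard error of 0.041. Over all genes tested 49% had a positive log2FC. Of 9 genes of sterol esterification and oxysterol synthesis 3 were tested and 0 passed, with *SOAT1*, which esterifies cholesterol, at −0.06 (standard error 0.048). Beside the 81 genes called over all genes tested (0.677%), 707 (5.91%) had an unadjusted p under 0.05 and a positive log2FC and 618 (5.17%) a negative one. At that threshold and by direction, the list of enzymes before squalene had 8 genes higher and 1 lower (*GGPS1*, of a side branch, log2FC −0.16). The SREBP machinery had 2 higher and 1 lower (*SREBF1*), and LXR signaling and sterol export 0 higher and 2 lower (*ABCA1* and *NR1H3*). Uptake and transport had 3 higher, fatty acid synthesis 3 higher and the genes of the same steps 1 higher, these 3 lists with 0 lower. The redox partners and sterol esterification had 0 in either direction. In the lists with 0 genes past the adjusted threshold, DESeq2 and limma-voom also called 0.

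**Figure D5:**
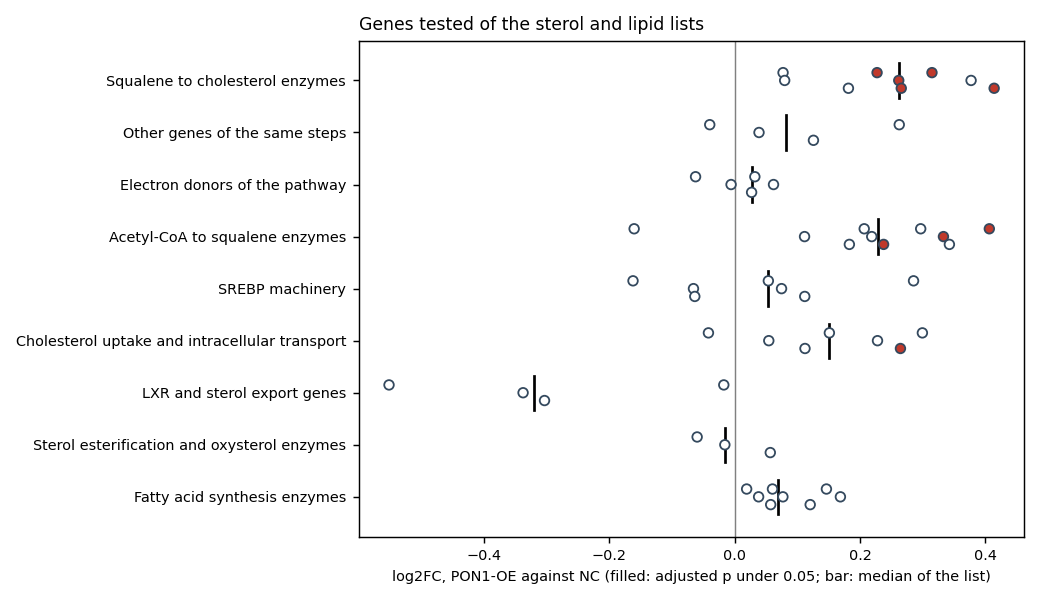
Fitted log2FC of PON1-OE against NC (horizontal axis) for each tested gene of 9 lists, with filled points for an adjusted p under 0.05 in edgeR and a bar at the median of the list. The enzymes before and after squalene have medians of 0.23 and 0.26, the 4 LXR and export genes lie below 0, and the redox partners lie around 0.

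The genes outside these lists whose profile over the 6 libraries was most like the mean profile of the 9 enzymes were *PDLIM7*, *ABHD17A*, *CRIP2*, *ALKBH7* and *PORCN*. The root mean square difference from that profile in centred log2 CPM was 0.0241 for *PDLIM7* and 0.0395 for *PORCN*, with the other 3 in between. Their log2FC values were 0.21 to 0.26, and 0 of the 5 had an adjusted p under 0.05. The profile holds the difference between the groups, so that a log2FC of about this size follows from how these genes were picked.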

How the data were processed

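RNA-seq libraries of HCCLM3 cells, 3 PON1-OE and 3 NC, were compared. The authors deposited estimated counts per gene, not normalized, of which 10.5% of the values were not whole. The submitters' processing notes name Bowtie2 2.2.8, HISAT2, StringTie 1.3.1 and DESeq2 without roles, and the genome build and annotation are not given in the sources used here. Columns were assigned by library name. Of the gene identifiers, 20126 are in GENCODE v29, which gave coordinates on GRCh38 and exonic lengths.

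The estimated counts were rounded. The fit used edgeR 4.0.16 under R 4.3.3 (filterByExpr, TMM, glmQLFit and glmQLFTest without covariates, Benjamini-Hochberg over 11958 genes), with DESeq2 1.42.0 and limma 3.58.1 as alternatives and tests on simulated counts. The standard error of a log2FC was taken from its F statistic. Log2 CPM used a prior count of 2. The members and lists were chosen with earlier results of these data known. Named were the 9 enzymes, *PON1*, list genes past an adjusted p under 0.05 or else the largest log2FC of a list, and the 5 nearest profiles among genes with a mean of at least 50 counts. *SC5D*, *LBR*, *SREBF1*, *SREBF2*, *GGPS1*, *NR1H2*, *NR1H3*, *MYLIP*, *POR* and the other redox partners were named after their values were seen. A replicate block, each library left out, RLE size factors and other filters (none, or 10 counts in all libraries) were tried as well. The study's fold threshold of 0.585 on the log2 scale and an unadjusted p were also tried. Adding ENSG00000285772 to *CYP51A1* was chosen after seeing the data. Exact tests of 3 against 3 libraries were not run on the enzymes. Some genes that this rule names are not reported here.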

Additional observations from a re-analysis of the deposited data

How the results depend on the processing

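The 9 enzymes kept a positive log2FC under all 12 alternative fits, except *TM7SF2*, which was −0.01539 without PON1-OE replicate 2 (range with single libraries left out −0.01539 to 0.1398), and *MSMO1* alone was called in each of them. Other calls depended on single libraries, and those of *SQLE* and *NSDHL* also on the method. *SQLE* was called in 4 of the 12 fits and *NSDHL* in 5. The adjusted p of *SQLE* was 0.281 in DESeq2, 0.0521 in limma-voom and 0.0508 in edgeR with RLE size factors. That of *NSDHL* was 0.0521 in limma-voom and 0.0516 in edgeR with the replicate block. The median log2FC of the enzymes was 0.1861 to 0.3116 with libraries left out. The number of enzymes called higher was 5, 1 to 4 with single libraries left out, 3 in limma-voom and 0 with the study's fold threshold. Over all genes, 60 were called higher and 21 lower. These counts were 116 and 61 without the filter, 3 and 3 with the fold threshold, 707 and 618 at an unadjusted p under 0.05, and 9 to 72 and 2 to 31 with single libraries left out. Of these, 9 and 2 were without NC replicate 3, 26 and 8 without NC replicate 1, 14 and 4 without PON1-OE replicate 3, and 33 and 11 if PON1-OE replicate 1 was left out. The cause was not tested. Replicate numbers are shared between the groups, but deviations of same-numbered libraries correlated at 0.0512, −0.158 and −0.0910 over genes, so the numbers were not taken as pairs. With the replicate block 29 genes were called higher and 11 lower, and 4 of the 9 enzymes. The median log2FC of the redox partners turned to −0.01099 without NC replicate 1 (range −0.01099 to 0.03887). That of sterol esterification and oxysterol genes (−0.016) ranged from −0.0709 to 0.08074, and was positive without NC replicate 1 (0.01309) or 3 (0.08074) and PON1-OE replicate 1 (0.02623) or 2 (0.05736). Taking the longest coding transcript as length moved *MSMO1* from 45.9 to 51.3 CPM per kb in NC, close to *NSDHL* at 52.1. In PON1-OE it moved the mean of *MSMO1* from 61.2 to 68.3, above *EBP* at 65.7 and *NSDHL* at 61.0. The order of these enzymes in PON1-OE thus depends on the length used. Counts under 200 limited *TM7SF2* and *HSD17B7*.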
